A study of Caenorhabditis elegans with 2 samples.

Results

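The heterochronic genes lin-14, lin-28, lin-29, lin-41, lin-42, hbl-1 and daf-12 are 7 of the 19985 protein-coding genes of Caenorhabditis elegans in the annotation. They were chosen by name, with the peak signals and ranks of these lists already known, and their peaks were selected on position, by a summit inside the gene or within 2 kb upstream of any of its transcript starts. Their values are therefore a description. All 7 had peaks in the pooled AKIR-1::GFP peak list, 62 in all, and none had a peak in the shorter IDR-thresholded list. AKIR-1 is the worm akirin, a small conserved nuclear protein that acts in transcriptional regulation. Chromatin immunoprecipitation with sequencing was done on 1 group of whole animals, strain IG1654, in 2 biological replicates numbered 3 and 4. The strain carries frSi12[pNP157(akir-1p::AKIR-1::GFP)] on chromosome II, a CRISPR insertion per the labels, so AKIR-1 with a C-terminal GFP-FLAG tag is driven by the akir-1 promoter. Worms of mixed sex had been starved as L1 larvae after bleaching and were collected as young adults at 70 hours, and the antibody recognised GFP. Every library came from worms with the transgene, and no list from untagged worms was analysed here. In whole animals, binding in fewer cells and weaker binding in each cell cannot be told apart.

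The heterochronic pathway sets the order in which cell fates follow each other through larval life, above all in the hypodermal seam cells. LIN-14, a transcription factor, and LIN-28, an RNA-binding protein that blocks maturation of the let-7 microRNA, hold cells in early larval programmes until the lin-4 microRNA lowers them. HBL-1, a zinc finger protein related to Hunchback, and LIN-41, an RNA-binding protein of the TRIM-NHL family, act later, and let-7 and its relatives repress them. DAF-12 is the nuclear receptor for dafachronic acids and ties these decisions to feeding state and dauer formation. LIN-42 is the worm relative of the circadian protein Period and cycles with the molts, while the zinc finger factor LIN-29 drives the change from larva to adult.

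The sequence beneath the strongest pooled peak of 5 of the genes is given first, because these are the places where pooled AKIR-1::GFP signal at those genes was highest. At lin-42, lin-14 and lin-29 the strongest peaks of the replicates did not overlap each other, and no replicate 4 peak overlapped the lin-29 site. The windows of lin-28 and lin-41 are not printed. Each run is 151 bases centred on the summit, read from the RefSeq assembly of ce11 (WBcel235), 5′ to 3′ on the strand of the gene. Capitals mark 6-base words searched on both strands: AGTGCA, a hexamer that DAF-12 recognises, AGGTCA, a hexamer that many nuclear receptors recognise, and GAGAGA, a GA repeat. The lin-42 window, chrII:1247014-1247164 on the minus strand, lies in intron 1 and had 64.2% GC. The lin-14 window, chrX:11467348-11467498 on the plus strand, is also in intron 1 and holds GAGAGA on the other strand. The daf-12 window, chrX:10637538-10637688 on the plus strand, lies in intron 1 and holds a single AGTGCA. The hbl-1 window, chrX:5820878-5821028 on the plus strand, is upstream of the gene. The lin-29 window, chrII:11920013-11920163 on the minus strand, is within coding sequence, and like the hbl-1 window it holds none of these words.
lin-42: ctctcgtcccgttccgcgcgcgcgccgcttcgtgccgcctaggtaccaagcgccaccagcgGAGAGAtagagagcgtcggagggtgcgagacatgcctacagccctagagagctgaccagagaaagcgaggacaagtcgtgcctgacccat
lin-14: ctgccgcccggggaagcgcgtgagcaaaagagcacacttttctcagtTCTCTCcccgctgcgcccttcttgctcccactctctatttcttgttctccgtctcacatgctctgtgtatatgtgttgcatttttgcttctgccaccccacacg
daf-12: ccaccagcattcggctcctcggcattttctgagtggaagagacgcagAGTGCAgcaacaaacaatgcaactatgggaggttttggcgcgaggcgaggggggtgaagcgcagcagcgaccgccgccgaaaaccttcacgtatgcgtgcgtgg
hbl-1: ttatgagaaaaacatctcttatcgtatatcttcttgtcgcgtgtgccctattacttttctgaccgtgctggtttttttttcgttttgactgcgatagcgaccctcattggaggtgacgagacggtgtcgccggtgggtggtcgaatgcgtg
lin-29: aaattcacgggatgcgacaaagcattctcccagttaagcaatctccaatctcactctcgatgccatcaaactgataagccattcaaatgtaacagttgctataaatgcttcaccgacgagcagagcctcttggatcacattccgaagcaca

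The deposited lists set how far these peaks can be read. The pooled list and each replicate list hold 30000 peaks, and the IDR-thresholded list holds 400, all on ce11. Irreproducible discovery rate (IDR) thresholding keeps peaks whose order is reproducible between replicates. The pooled and IDR-thresholded lists were made from both replicates, so they are not further measurements. The signal value of a peak is the authors' own. Its scale is not stated and is not the same in each list, so the genes are set in order by rank within a list, where rank 1 is the strongest, and no mean over replicates is given. Pooled signal values began at 33.6 and had a median of 44.5, and the lowest IDR-thresholded peak had 108. The lists hold no read counts, and depth is unknown. Many of the 30000 peaks are weak: the q-values of the pooled list reach 0.802. The strongest pooled peaks of the 7 genes had q-values between 0.174, at lin-42, and 0.604, at lin-29.

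All 7 genes had peaks and none had a peak among the 400 strongest of the pooled list, and both counts are close to the background. Each of the 7 genes had at least 1 pooled peak, where 70.1% of protein-coding genes did. Each also had at least 1 replicate 3 peak, against 71.5%, and at least 1 replicate 4 peak, against 71.0%. The windows searched, each a gene with its upstream sequence, ran from 5.175 kb at lin-28 to 32.968 kb at daf-12, and longer windows hold more peaks by their length. Among protein-coding genes with windows of at least 5000 bp, 78.5% had a pooled peak, 80.5% a replicate 3 peak and 80.4% a replicate 4 peak. The count of 7 of 7 is therefore close to the background. The limit of 5000 bp is only a floor: the median window was 19.702 kb over the 7 genes and 4.026 kb over protein-coding genes. Shares, percentiles and medians given for long windows are thus not matched to the 7 on length. None of the 7 had an IDR-thresholded peak, where 2.34% of protein-coding genes and 3.51% of those with long windows had one. The same shares had a peak among the 400 strongest of the pooled list, since those are the peaks of the IDR-thresholded list. With shares this low, a count of 0 of 7 is also close to the background.

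A graded count by rank put most of the 7 genes, but not all, among the 4000 strongest peaks of each list. In the pooled list 2 of the 7, lin-14 and lin-42, had a peak among the 1000 strongest, against 5.10% of protein-coding genes and 8.18% of those with long windows. All but lin-29, 6 of the 7, had a peak among the 4000 strongest, against 17.9% and 26.4%. That count is by summit, and with any overlap of a peak with the window lin-29 reached rank 3204. In the replicate 3 list 0 genes had a peak among the 400 strongest, where 2.23% of protein-coding genes did and 3.51% of those with long windows. There, 2 genes reached the 1000 strongest, against 5.33% and 8.68%, and 5 reached the 4000 strongest, against 18% and 26.8%. The strongest replicate 3 peaks of hbl-1 (rank 6572) and lin-28 (rank 14013) were not among those 4000. In the replicate 4 list only daf-12 reached the 400 strongest, against 2.31% and 3.25%. There, lin-42 and daf-12 were among the 1000 strongest, against 5.21% and 7.84%, and 6 genes among the 4000 strongest, against 17.8% and 26.8%. These counts are descriptions, with no test, because the genes were put together with results of these data known. Neither background is matched to the 7 on window length.

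**Figure D1:**
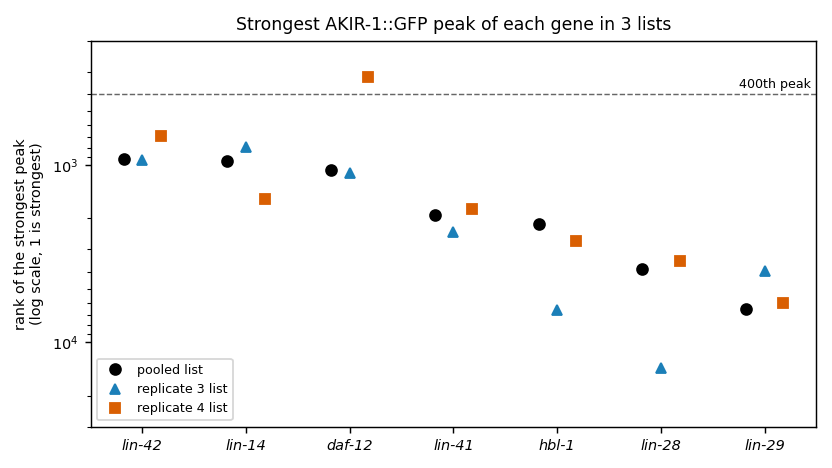
Rank of the strongest peak of each gene (vertical axis, log scale, rank 1 at the top end) in the pooled (black circles), replicate 3 (blue triangles) and replicate 4 (orange squares) lists; genes run from the strongest to the weakest pooled peak, and the dashed line marks rank 400. Only the replicate 4 peak of daf-12, at rank 319, lies above the line, and the gap between replicates on this scale is widest at lin-28 (ranks 14013 and 3497), then at daf-12 (1114 and 319).

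By their strongest peaks, lin-42, lin-14 and daf-12 led in each of the lists and lin-41 came next in each. In the pooled list lin-42 reached a signal of 87.3 (rank 928), lin-14 reached 86.9 (rank 950) and daf-12 reached 84.7 (rank 1068). Then came lin-41 with 74.3 (rank 1917), hbl-1 with 72.5 (rank 2150), lin-28 with 63.7 (rank 3850) and lin-29 with 56.3 (rank 6535). The replicates placed the leading 3 in different orders: lin-14, lin-42, daf-12 in replicate 3 and daf-12, lin-42, lin-14 in replicate 4. They did not agree on the order of the last 3 either, since lin-29 ranked above hbl-1 and lin-28 in replicate 3 and below both in replicate 4. The leading 3 cannot be put in order beyond the spread between replicates, nor can lin-29 be placed among the last 3. In each list hbl-1 ranked above lin-28. Among all protein-coding genes the strongest pooled peak of the 7 stood between percentile 73.6 (lin-29) and 95.2 (lin-42). Among those with long windows it stood between 62.0 and 92.4. Genes without a peak counted as lowest in these percentiles. Among the 11086 protein-coding genes with a peak in the pooled and both replicate lists, the pooled range was 54.0 (lin-29) to 91.4 (lin-42). There lin-28 stood at 69.3 in the pooled list, 27.5 in replicate 3 and 73.1 in replicate 4. The order of the genes holds for summits within the whole windows. In promoters alone, from 500 bp upstream to 100 bp downstream of a start, the strongest pooled peak ranked 3850 at lin-28, 4377 at lin-14, 7094 at daf-12, 19299 at lin-42 and 28263 at hbl-1, and lin-41 and lin-29 had none.

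Peaks were also denser at the 7 genes than over all protein-coding genes. The 62 pooled peaks lay in 118.592 kb of windows, 0.523 per kb, against 0.308 per kb over the windows of nuclear protein-coding genes and 0.299 per kb over the nuclear genome. The replicate 3 list held 61 peaks, 0.514 per kb against 0.309 at protein-coding genes, and the replicate 4 list held 69, 0.582 per kb against 0.308. Some of the 62 overlap each other, and merging these leaves 54 regions. Among the genes hbl-1 was highest at 1.05 pooled peaks per kb, followed by lin-14 at 0.762 and lin-28 at 0.580. Below them stood lin-41 at 0.516, daf-12 at 0.485, lin-42 at 0.379 and lin-29 at 0.254. For hbl-1 the density rests on the pooled and replicate 3 lists, with 8 peaks each, since the replicate 4 list held 4. For lin-29 the replicate 4 list held 9 peaks, against 4 in replicate 3. Peak density also differs by chromosome, and the pooled list held 0.407 peaks per kb on X, where lin-14, hbl-1 and daf-12 lie. It held 0.280 per kb on II, where lin-29 and lin-42 lie, and 0.248 on I, where lin-28 and lin-41 lie. In the pooled list all of the genes but lin-29 were above the density of their own chromosome. In replicate 3 lin-42, at 0.284 per kb, and lin-29, at 0.203, were below the 0.309 of protein-coding genes. In replicate 4 all 7 genes were above the 0.308 of protein-coding genes.

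**Figure D2:**
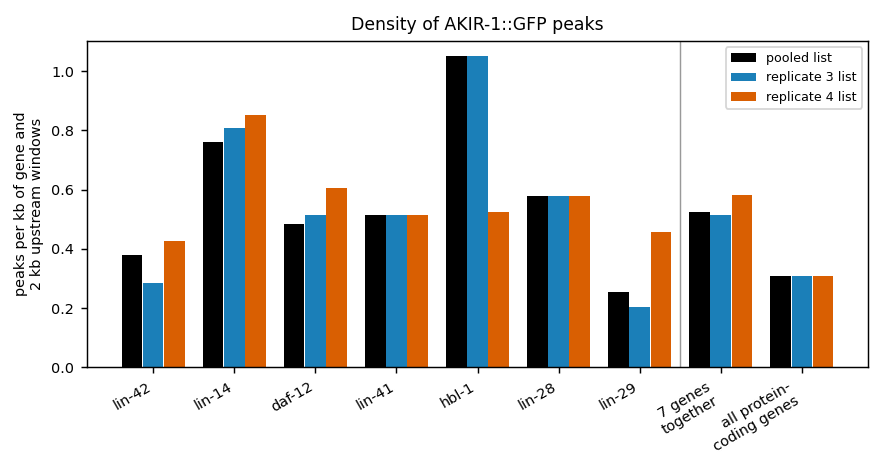
Peaks per kb of gene and upstream window (vertical axis) in the pooled (black), replicate 3 (blue) and replicate 4 (orange) lists, for each gene, for the 7 together and for all nuclear protein-coding genes. The 7 together stand at 0.523, 0.514 and 0.582 against 0.308, 0.309 and 0.308, and hbl-1 drops to 0.525 in the replicate 4 list.

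The peaks at the 7 genes were somewhat stronger than those at protein-coding genes as a whole, a difference that was not tested. Their median pooled signal was 48.8, against 44.7 over the peaks at nuclear protein-coding genes. Of the 62, 42 were among the 15000 strongest (67.7%), where 50.7% of the peaks at protein-coding genes were. The same shares were 62.3% against 50.5% in the replicate 3 list and 55.1% against 50.4% in the replicate 4 list. Among the 4000 strongest pooled peaks were 13 of the 62 (21.0%), against 13.5%, where replicates 3 and 4 had 19.7% and 21.7%, each against 13.5%. Of these 13, lin-14 held 6, lin-42 and daf-12 held 2 each, and lin-28, lin-41 and hbl-1 held 1 each.

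The early larval factor lin-14 (WBGene00003003, chromosome X from 11465560 to 11485871, plus strand, 2 transcript starts) had the most peaks in the pooled list. It had 17 pooled peaks with signals from 38.5 to 86.9, 18 in replicate 3 and 19 in replicate 4. The strongest pooled summit lay in intron 1 of 11, 1863 bp downstream of the first start, inside T25C12.7, an ncRNA gene on the opposite strand, and 107 bp from the start of that ncRNA. Replicate 3 placed its strongest lin-14 peak there, with a signal of 51.6 (rank 793), while the overlapping replicate 4 peak had 33.9 (rank 4907). The strongest replicate 4 peak had 43.3 (rank 1560) and lay 11.508 kb away, 1429 bp upstream of the second start. The pooled peak there had 71.4 (rank 2318) and the replicate 3 peak 26.0 (rank 15056), so the replicates did not rank these sites alike. The other pooled peaks among the 4000 strongest had signals of 79.7 at 1634 bp and 66.5 at 896 bp downstream of the second start, 75.4 at 6695 bp downstream of the first, and 65.8 at 6928 bp upstream of the second. The peak with 75.4 was close in the ranks of both replicates, with 42.0 (rank 2169) in replicate 3 and 43.3 (rank 1572) in replicate 4. Introns held 13 of the 17 summits, and intron 3, the long intron before the second start, held 10 of them. A replicate 3 peak with a signal of 39.8 (rank 2849) in the 3′ UTR, 80 bp from the start of the snoRNA gene T25C12.11, had no counterpart in the pooled list.

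The other early regulator, lin-28 (WBGene00003014, chromosome I from 8407630 to 8410804, minus strand, 2 starts), had 3 peaks in each of the lists. Its strongest pooled peak, with a signal of 63.7, had its summit 21 bp downstream of the second start, in a 5′ UTR, the closest of the leading peaks to a start of its own gene. Both replicates put their strongest lin-28 peak there, with 26.6 (rank 14013) in replicate 3 and 36.6 (rank 3497) in replicate 4. Both replicates thus held the site, at well separated ranks. A peak of 44.6 lay 502 bp upstream of the first start, in replicate 3 but not in replicate 4, and fell also in the window of the protein-coding gene F02E9.7. It is the only 1 of the 62 that another protein-coding gene shares. The third, with 37.6 in the 3′ UTR, overlapped a peak of both replicates.

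At hbl-1 (WBGene00001824, chromosome X from 5822142 to 5827755, plus strand, 2 starts), a single strong site stood upstream of the gene and weak ones ran across its exons. The upstream summit lay 1189 bp before the first start, with a pooled signal of 72.5, and 886 bp from the start of the ncRNA gene F13D11.20. Replicate 3 had 32.9 there (rank 6572) and replicate 4 had 38.7 (rank 2691), in each case its strongest hbl-1 peak. The other 7 pooled peaks had signals from 34.6 to 46.8, and 5 of them lay in coding exons, 1 in an intron and 1 in the 3′ UTR. With an upstream limit of 1000 bp in place of 2000 bp the leading site is lost, and the strongest remaining pooled peak ranks 12838.

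The let-7 target lin-41 (WBGene00003026, chromosome I from 9334800 to 9342496, minus strand, 2 starts) was the only 1 of the genes with all of its pooled summits in coding exons. The strongest, with 74.3, lay 296 bp downstream of the second start. Replicate 4 placed its strongest lin-41 peak there, with 42.2 (rank 1778), and replicate 3 had 31.7 (rank 7584). The strongest replicate 3 peak had 41.3 (rank 2387) and lay 5.561 kb further on, towards the 3′ end, where the pooled peak had 62.6 (rank 4140) and the replicate 4 peak 19.2 (rank 28248). The remaining pooled signals were 51.4, 39.9 and 38.1. A replicate 4 peak with 33.9 (rank 4843) in intron 8 had no pooled counterpart.

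The nuclear receptor gene daf-12 (WBGene00000908, chromosome X from 10635908 to 10666875, plus strand, 9 starts) had the longest window and 16 pooled peaks, 17 in replicate 3 and 20 in replicate 4. Its strongest pooled summit lay in intron 1 of 18, 1705 bp downstream of the first start, and both replicates put their strongest daf-12 peak at this site. Replicate 3 had 47.8 (rank 1114) and replicate 4 had 62.2 (rank 319). With a q-value of 0.0204 the replicate 4 peak was the only peak of the 7 genes, in any list, with a q-value below 0.05. In the replicate 4 list 2.42% of protein-coding genes had such a peak, in the pooled list 2.17%, and in the replicate 3 list 0%. The replicate summits were 199 bp apart, and a second pooled peak of 49.4, at 1909 bp, overlapped the same pair of replicate peaks. Next among the daf-12 peaks came 68.5 (rank 2793) in intron 3, with 35.6 (rank 4727) in replicate 3 and 23.1 (rank 18333) in replicate 4. Introns 1 and 3 together held 13 of the 16 summits. Towards the 3′ end the replicates differed: a coding exon peak of 60.3, 361 bp after the last start, had 19.6 (rank 29782) in replicate 3 and 40.9 (rank 2062) in replicate 4. A 3′ UTR peak of 53.3 had 46.3 (rank 1100) in replicate 4 and no overlapping peak in replicate 3.

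The Period relative lin-42 (WBGene00018572, chromosome II from 1233236 to 1252359, minus strand, 5 starts) had the strongest pooled peak of the set. The summit lay in intron 1 of 9, 3054 bp upstream of the nearest start of lin-42. It fell inside F47F6.15, an ncRNA gene on the same strand, 64 bp after its start. Replicate 3 had 47.0 (rank 1224) and replicate 4 had 51.5 (rank 690) at the site, its strongest lin-42 peak. The strongest replicate 3 peak, with 49.7 (rank 938), lay 8.954 kb away in intron 6, where the pooled peak had 57.0 (rank 6209) and replicate 4 had no overlapping peak. A second strong pooled peak, with 80.4 (rank 1369), lay in a 5′ UTR 372 bp after a later start, with 39.4 (rank 3014) in replicate 3 and 37.2 (rank 3227) in replicate 4. At the first start, a coding exon peak of 44.3 and a peak of 56.4 that lay 1001 bp upstream were found in replicate 4, at ranks 3480 and 3193, and not in replicate 3.

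The adult switch gene lin-29 (WBGene00003015, chromosome II from 11917642 to 11935343, minus strand, 3 starts) had the weakest leading peak and the lowest density in the pooled list. Last place rests on assignment by summit: with any overlap of a peak with the window, lin-29 reached pooled rank 3204 and lin-28 stayed at 3850. In replicate 3 the leading lin-29 peak ranked above those of hbl-1 and lin-28. In replicate 4 the lin-29 density of 0.457 per kb was above the 0.426 of lin-42. Its strongest pooled peak, with 56.3, lay in a coding exon 1350 bp downstream of the last start. Replicate 3 had 35.1 there (rank 5058) and replicate 4 had no overlapping peak. The strongest replicate 3 peak had 37.0 (rank 3978) and lay in intron 4, 19 bp from the start of the ncRNA gene Y17G7A.4, where the pooled peak had 51.6 and replicate 4 again had none. The strongest replicate 4 peak had 32.2 (rank 6045) and lay 5.46 kb from it, in the same intron. No pooled summit lay upstream of lin-29. Only 2 of its 5 pooled peaks were found in both replicates, with pooled signals of 48.7 and 45.2.

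**Figure D3:**
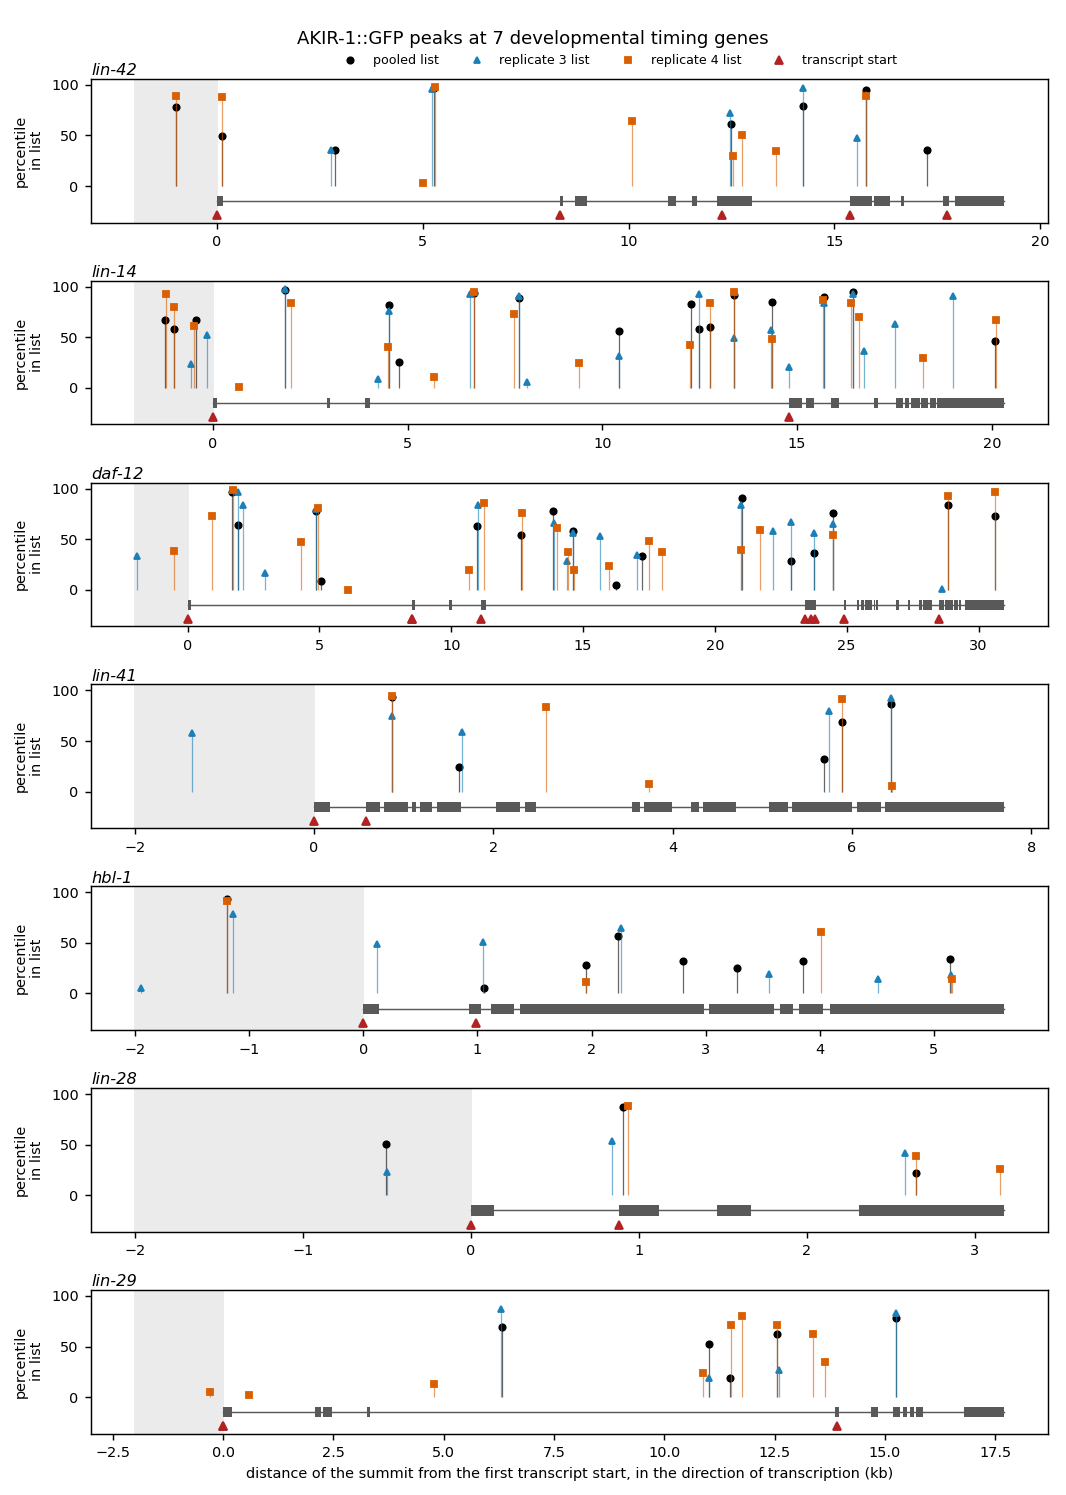
Peak summits at each gene, by distance from the first transcript start in the direction of transcription (horizontal axis, kb) and by percentile of signal within the list (vertical axis), for the pooled (black circles), replicate 3 (blue triangles) and replicate 4 (orange squares) lists. Boxes are exons, red triangles transcript starts and grey shading the 2 kb before the first start; the panels differ in horizontal scale, and the strongest summits of lin-42, lin-14 and daf-12 lie inside the gene, past the first start.

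The summits of the 62 peaks lay mostly inside the genes, which also make up most of the windows. Introns held 35 (56.5%), where introns make up 67.0% of the windows. Coding exons held 14 (22.6%) and make up 12.7%. Sequence upstream of the genes held 6 (9.68%) and makes up 11.8%. For all protein-coding genes, counting a summit once for each window it falls in, introns held 27.3% of summits against 33.1% of the windows, coding exons 27.9% against 23.7%, and upstream sequence 39.1% against 38.3%. In the 7 genes as in all of them, introns held less and coding exons more than their share of sequence. The remaining summits at the 7 genes were 3 in 5′ UTRs and 4 in 3′ UTRs. Of the 62 summits 3 lay within 100 bp of a start of the same gene and 13 within 500 bp, 28 were over 2000 bp away, and the median distance was 1787 bp. The nearest start of any gene belonged to the gene itself for 34 summits and to an ncRNA gene for 24, and to a piRNA gene, a snoRNA gene or another protein-coding gene for the other 4. No matching shares of the windows or of other peaks were computed for distances and nearest starts. These values therefore show no preference for or against starts. AKIR-1::GFP signal at these peaks cannot be given to the heterochronic gene rather than to such a gene within it from position alone.

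No pooled summit lay close to the upstream limit of 2000 bp. Just inside it, the most distant pooled summits lay 1231 bp upstream at lin-14 (50.8), 1189 bp at hbl-1 (72.5), 1001 bp at lin-42 (56.4) and 502 bp at lin-28 (44.6). For lin-29, lin-41 and daf-12 no pooled summit lay in the upstream 2000 bp. Just outside, the nearest was 3280 bp upstream at lin-42 (37.8), then 3684 bp at daf-12 (38.9) and 3800 bp at lin-14 (38.9). At the other 4 genes it was 4484 bp or more away, and the strongest of these outside peaks had 59.8, at 4841 bp from hbl-1. IDR-thresholded peaks were further off. The nearest was 13.526 kb from the hbl-1 window, with a signal of 112 (rank 360), and it is the peak of puf-9. Those nearest to lin-29, lin-14 and lin-41 were 23.458, 36.447 and 37.059 kb from their windows, and those nearest to lin-28, daf-12 and lin-42 were 148, 364 and 978 kb away.

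A larger share of the peaks at the 7 genes than of those at protein-coding genes was found in both replicates, and no test was made. Of the 62 pooled peaks 40 overlapped a peak of both replicates by at least 1 bp (64.5%, 95% exact interval 51.3 to 76.3), against 46.3% of the peaks at protein-coding genes, and 2 overlapped neither. With stricter rules the shares were 43.5% against 35.9% when at least 50% of the shorter peak had to overlap, 30.6% against 26.0% with summits within 100 bp, and 37.1% against 20.5% with the 15000 strongest peaks of each replicate list. Interval and share cover counting over peaks alone, and neighbouring peaks of a gene can overlap the same replicate peak: the 40 rest on 34 distinct pairs. Strength moved with this share. Of the 42 among the 15000 strongest, 32 were in both (76.2%, 60.5 to 87.9), against 68.8% at protein-coding genes. Of the 20 weaker ones 8 were (40%, 19.1 to 63.9), against 23.2%. All 13 of the 4000 strongest were in both. Replicate 3 and replicate 4 peaks were also denser at the 7 genes, at 0.514 and 0.582 per kb against 0.309 and 0.308. The part of density in shares counted by overlap was not tested. By gene the number was 13 of 17 at lin-14, 11 of 16 at daf-12, 5 of 8 at hbl-1, 4 of 5 at lin-41, 3 of 8 at lin-42, 2 of 3 at lin-28 and 2 of 5 at lin-29.

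The replicate lists compared directly, without the pooled list, gave a similar picture. Of the 61 replicate 3 peaks 39 overlapped a replicate 4 peak (63.9%, 50.6 to 75.8), against 46.7% at protein-coding genes. Of the 69 replicate 4 peaks 39 overlapped a replicate 3 peak (56.5%, 44.0 to 68.4), against 47.2%. The strongest peaks of the replicates overlapped at 3 of the 7 genes, lin-28, hbl-1 and daf-12. They did at 37.9% of protein-coding genes with a peak in both lists and at 30.5% of those with long windows. Across the 34 pairs Pearson's r of the log2 signal values was 0.40 and Spearman's rho 0.33. The pairs share genes and chromatin, so these values are a description and no test is given. In both replicates some peaks had no counterpart in the pooled list, 11 of 61 in replicate 3 and 19 of 69 in replicate 4. Where both replicates had the peak, the median distance between the pooled and the replicate summit was 28 bp, 53 of 80 distances were within 100 bp and the largest was 302 bp. Peaks are 370 to 380 bp wide at the median, so overlap itself limits these distances.

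**Figure D4:**
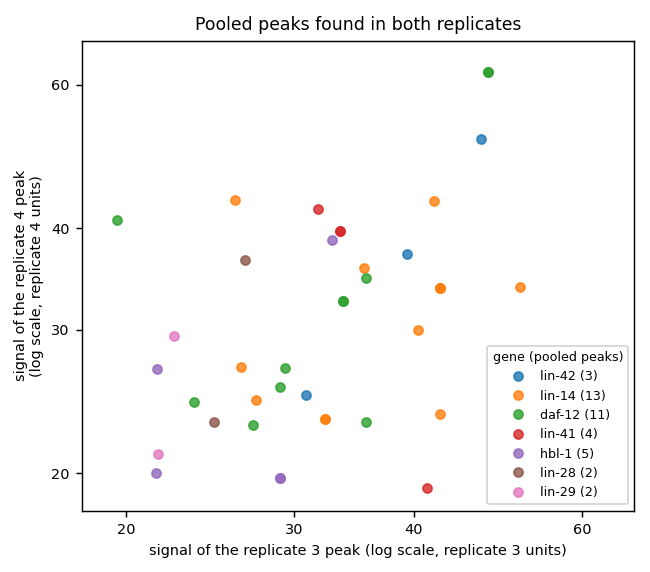
Signal of the overlapping replicate 3 peak (horizontal axis) and replicate 4 peak (vertical axis), both log scale and in each list's own units, for the 40 pooled peaks found in both replicates, coloured by gene with the number of pooled peaks in brackets. Pooled peaks that overlap the same pair of replicate peaks fall on 1 point, so 34 points are seen, with the strongest daf-12 site at 47.8 and 62.2 in the upper right.

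The 6-base words differed in frequency between the 62 summit windows and other windows of 151 bases. AGTGCA was present in 12 of 62 windows (19.4%), against 6.43% of windows at the peaks of nuclear protein-coding genes, and 6 of the 12 were at lin-14, 3 at daf-12, 2 at lin-42 and 1 at hbl-1. GAGAGA was present in 13 (21.0%), against 10.5%, with 4 at lin-42, 3 each at lin-14 and lin-29, and 1 each at lin-28, lin-41 and daf-12. The lin-28 window is that of its strongest peak and holds 2 matches. AGGTCA was present in 5 (8.06%), against 3.91%. Matches may lie on either strand and may overlap. Base composition differed too, with a median GC content of 44.4% in the windows of the 7 genes and 37.7% in the others, and its part in these shares was not tested. A match is no measure of binding by any factor.

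A list of 38 other genes of the developmental timing pathway was set beside the 7. All 38 were matched, and 35 had a pooled peak, 34 a replicate 3 peak and 35 a replicate 4 peak. IDR-thresholded peaks were present at 6 of the 38, all among its 32 protein-coding genes (18.8%). The background was 2.34%, or 3.51% among genes with long windows, and the 0 of 7 given above is close to both. The strongest of the 6 was at nhl-2, which encodes a TRIM-NHL cofactor of microRNA silencing, with 205 (rank 53). Next came ain-1, for a GW182-type protein of the microRNA silencing complex, with 157 (rank 124), and myrf-1, for a membrane-tethered transcription factor of the molts, with 116 (rank 316). Then followed lin-66, a repressor of lin-28, with 114 (rank 341), puf-9, for a Pumilio protein that represses hbl-1, with 112 (rank 360), and din-1, for a co-repressor of DAF-12, with 110 (rank 381). These strongest peaks all lay upstream of their genes, from 309 bp at lin-66 to 940 bp at ain-1. At nhl-2, puf-9, myrf-1 and din-1 an ncRNA start was nearer, at 94, 69, 283 and 31 bp. Among the 7 heterochronic genes only the leading peak of hbl-1 was upstream of the gene. No pooled peak was found at lep-2, rbm-28 or dmd-3. The median strongest pooled signal was 74.3 over the 7 genes, 64.0 over the 35 list genes with a peak, and 51.3 over protein-coding genes with a peak, or 55.7 for those with long windows.

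**Figure D5:**
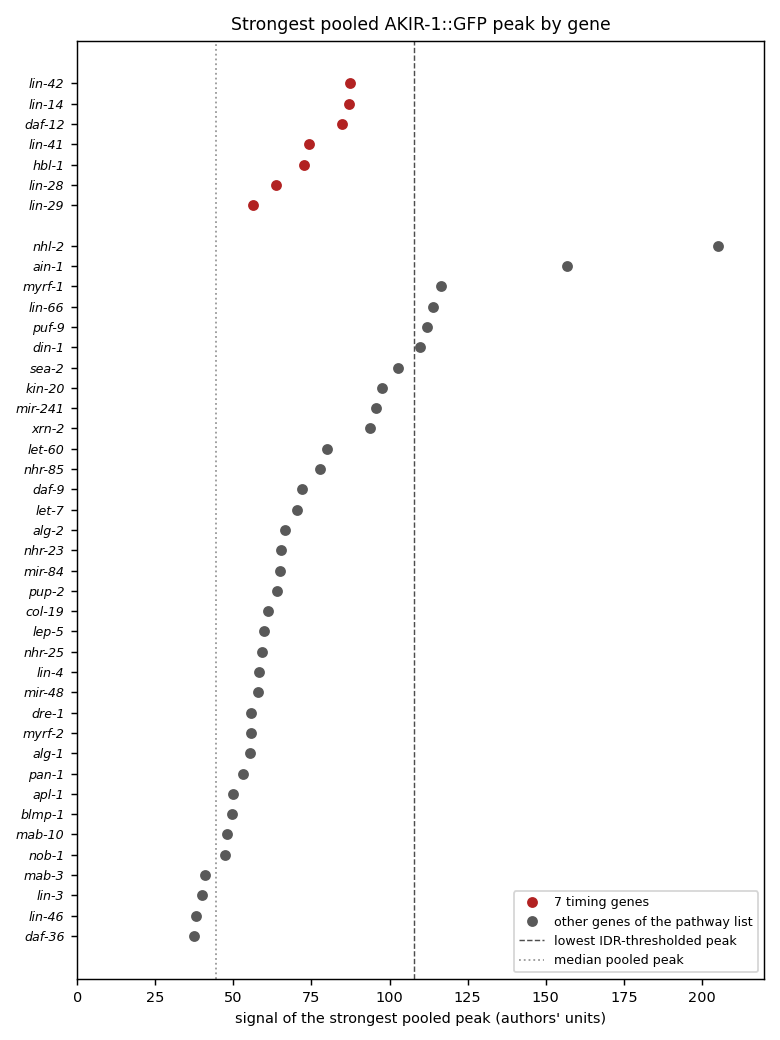
Signal of the strongest pooled peak (horizontal axis, authors' units) for the 7 genes (red, upper block) and for the 35 other pathway genes with a pooled peak (grey, lower block), with the lowest IDR-thresholded signal (dashed) and the median pooled peak (dotted). All 7 lie between 56.3 and 87.3, above the dotted line at 44.5 and below the dashed line at 108, which 6 of the other genes pass.

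Likeness to other genes was measured as the summed difference in percentile of the strongest peak over the 3 full lists, among 11086 protein-coding genes with a peak in each. The most alike were fkh-7 for lin-14, elo-2 for lin-28, eif-2Bepsilon for lin-29, F07C6.4 for lin-41, clec-185 for lin-42, F49H12.4 for hbl-1 and pck-2 for daf-12. The summed difference ran from 0.708 percentile points for lin-41 to 3.20 for lin-29. With so many genes compared over 3 lists, of which the pooled 1 holds the other 2, near matches are easily found.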

How the data were processed

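Peak lists from AKIR-1::GFP chromatin immunoprecipitation of young adult worms were used as the authors deposited them. Per the texts deposited with the samples, replicates 3 and 4 were called separately and pooled, and an IDR-thresholded list was derived from these, with 1 further alignment set used in each call. The aligner and the caller were not given in the sources used here, nor was the IDR threshold. Each peak has a signal value of the authors, on an unstated scale, used here for ranks within a list, and a deposited −log10 q-value, printed as q. Read counts are not part of the lists and depth is unknown. The labels call the replicates biological.

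Gene models came from Ensembl release 115 (46926 genes, 19985 protein-coding) and sequence from RefSeq, both on the build of the lists. Summits were assigned to windows of gene plus 2000 bp upstream of any transcript start, and a peak could count for more than 1 gene. Shares carry exact (Clopper-Pearson) intervals at 95%, which cover counting over peaks alone. No test was made, because the members were selected with peak values in view. The 7 genes, the pathway list and the words searched were chosen with earlier results of these data known. The text names the 7 genes, the pathway genes with an IDR-thresholded peak or the 6 strongest pooled signals (the same 6), those with no peak, and the most alike gene of each member. The assignment step was tested on planted peaks, and the count of overlaps of at least 1 bp was checked on the deposited lists with bedtools. The stricter overlap rules were not checked in this way. Alternatives were other windows, assignment by any overlap, stronger peaks only, other overlaps and each replicate alone. The background of windows of at least 5000 bp and the background shares under other overlaps were added after the data were seen. Software was Python 3.11.15, scipy 1.17.1, pandas 2.3.3, numpy 2.4.6 and matplotlib 3.10.9.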

Additional observations from a re-analysis of the deposited data

How the results depend on the processing

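Of 41 alternative values over the 7 genes and the lists, 25 stayed near the value reported and 16 moved. The count of genes with a pooled peak was 7 in either replicate list alone, and the count with an IDR-thresholded peak stayed at 0 under the other windows tried. The number of pooled peaks at the 7 genes was 61 to 69 with either replicate list in place of the pooled list, 13 among the 4000 strongest and 8 in promoters alone (500 bp upstream to 100 bp downstream of a start), where lin-29 and lin-41 had none. The share found in both replicates was 100% among the 4000 strongest, 43.5% when at least 50% of the shorter peak had to overlap, 37.1% with the 15000 strongest of each replicate list, and 30.6% with summits within 100 bp. The share of protein-coding genes with a pooled peak was 62.1% with 1000 bp upstream, 56.9% with 500 bp, 72.6% with any overlap, 48.5% for the 15000 strongest, 17.9% for the 4000 strongest, 23% in promoters, and 71.0% to 71.5% with a replicate left out. Pathway list genes with a pooled peak numbered 18 for the 4000 strongest and 23 in promoters, and 34 to 35 with a replicate left out. Ranks of strongest peaks moved in 21 of 40 alternatives, where any change of rank counted as a move. The promoter setting of lin-29 and lin-41, which had no peak there, is not among the 40. With any overlap lin-29 reached rank 3204. In promoters lin-42 fell to 19299, hbl-1 to 28263, daf-12 to 7094 and lin-14 to 4377, and lin-28 then led. The causes of these moves were not tested. No paired analysis was possible because there is 1 group. Depth, unknown here, limits all ranks.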
